A study of Mus musculus with 12 samples.

Results

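To examine where BMAL1 was bound at genes that promote or oppose the growth arrest of senescent cells, peaks of BMAL1-ChIP-seq were collected for 10 genes of the CDK inhibitor and p53 pathways: Cdkn1a, Cdkn1b, Cdkn1c, Cdkn2a, Cdkn2b, Cdkn2c, Trp53, Mdm2, Mdm4 and Rb1. A peak belonged to one of these genes when the start site nearest to its midpoint was that of one of the gene's protein-coding transcripts (GENCODE M21, mm10). The 10 genes, out of 21840 protein-coding genes, received 39 of the 35822 peaks called in 6 libraries. These 39 peaks merged into 18 of 16818 regions, where peaks that overlap in any library form one region. Of the 10 genes, 6 had at least 1 peak in some library, where 36.4% of all protein-coding genes did, and 4 had none. Genes not annotated as protein-coding were left aside, and 12 of the 18 regions lay nearer to the start site of such a gene than to that of a member.

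Primary mouse adult fibroblasts (MAFs) were grown from the ears of adult female C57BL/6J mice and kept at 3% oxygen. Senescent MAFs had received 20 Gy of X-rays, and control MAFs a sham irradiation. Both groups were treated with 100 nM dexamethasone for 2 hours, which aligns the clocks of cultured cells, and were collected 12 hours later, with 3 libraries per group. The groups shared genotype and synchronization, and differed in irradiation and the time in culture that followed it. Whether passage number or processing batch was matched between the groups is not stated. The labels name a Cell signalling antibody against BMAL1, whereas the study's ChIP methods name one from Abcam. Nothing in the labels says that replicates came from separate mice or cultures, so the p-values measure the spread between these libraries, which may be technical. Peak lists hold no expression values, and the fibroblast label could not be checked against marker genes.

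BMAL1 pairs with CLOCK, and the pair activates genes through the E-box CACGTG. The p53 protein, encoded by Trp53, is stabilized after DNA damage and induces Cdkn1a, whose product p21 inhibits cyclin-dependent kinases. MDM2 is the ubiquitin ligase that degrades p53, and MDM4 is its relative that blocks p53 activity. The INK4 inhibitors p16INK4a (Cdkn2a), p15INK4b (Cdkn2b) and p18INK4c (Cdkn2c) and the Cip/Kip inhibitors p21, p27 (Cdkn1b) and p57 (Cdkn1c) keep the retinoblastoma protein RB1 in the state that restrains cell division. Cdkn2a also encodes p19ARF, which inhibits MDM2.

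Regions called in senescent libraries only lay at Mdm2, Mdm4 and Cdkn1a, and their sequences are given on the forward strand of GRCm38, 5′ to 3′. The window of 200 bases around the centre of the Mdm2 region called in all 3 senescent libraries is shown with its E-box in capitals, followed by the window of a neighbouring Mdm2 region called in senescent replicate 2 alone, with 3 E-boxes.
Mdm2, 28 kb downstream (chr10:117682672-117682871): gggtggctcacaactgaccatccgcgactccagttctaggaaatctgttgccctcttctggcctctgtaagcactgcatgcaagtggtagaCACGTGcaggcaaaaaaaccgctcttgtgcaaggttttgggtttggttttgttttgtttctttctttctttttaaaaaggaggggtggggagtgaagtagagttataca
Mdm2, 34.9 kb downstream (chr10:117675766-117675965): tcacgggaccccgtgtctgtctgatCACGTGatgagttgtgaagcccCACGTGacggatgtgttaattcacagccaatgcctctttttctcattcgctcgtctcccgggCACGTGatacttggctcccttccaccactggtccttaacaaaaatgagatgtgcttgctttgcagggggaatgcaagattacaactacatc
The 150 bases before the start sites of Mdm4 and Cdkn1a, both sites of senescent-only regions (called in at least 2 of 3 senescent and 0 of 3 control libraries), are shown with an AP-1 motif (TGACTCA or TGAGTCA) in capitals for Mdm4 and GC boxes (GGGCGG) in capitals for Cdkn1a. The Mdm4 gene is on the reverse strand, so its start site lies to the left of the first base.
Mdm4 promoter (chr1:133025417-133025566): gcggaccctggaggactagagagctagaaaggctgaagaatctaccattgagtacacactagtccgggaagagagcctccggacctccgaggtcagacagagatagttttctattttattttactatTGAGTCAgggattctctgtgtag
Cdkn1a promoter (chr17:29093619-29093768): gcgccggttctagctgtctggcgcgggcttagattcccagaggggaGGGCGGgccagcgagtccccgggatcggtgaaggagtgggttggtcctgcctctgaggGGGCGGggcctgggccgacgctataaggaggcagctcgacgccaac
The window around the centre of the one member region called in all 6 libraries, upstream of Mdm4, is shown because it held no E-box, no variant E-box (CACGTT) and no AP-1 motif.
Mdm4, 8.80 kb upstream (chr1:133034112-133034311): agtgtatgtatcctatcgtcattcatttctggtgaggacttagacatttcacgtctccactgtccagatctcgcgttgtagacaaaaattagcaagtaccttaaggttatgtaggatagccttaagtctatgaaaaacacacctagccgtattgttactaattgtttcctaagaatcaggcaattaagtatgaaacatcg

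**Figure D1:**
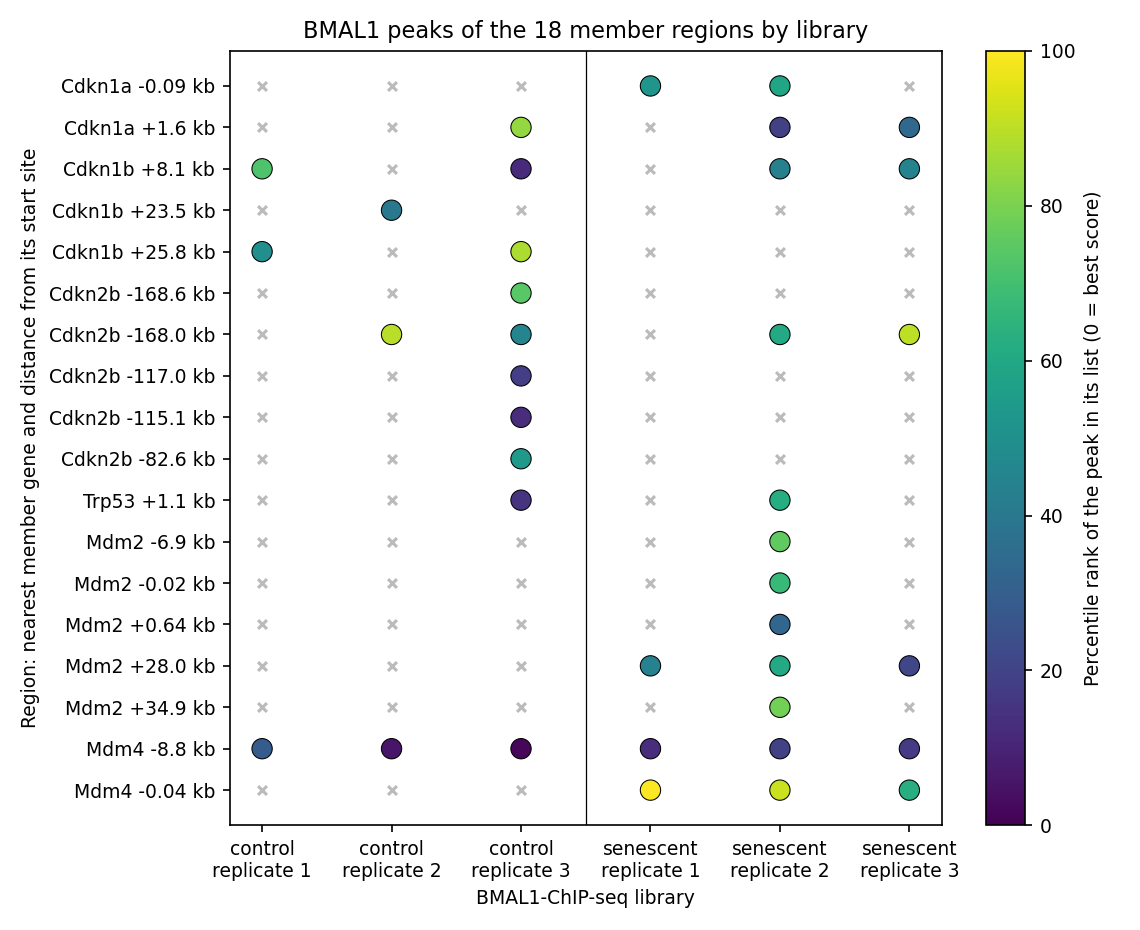
Each row is one of the 18 regions, named by its gene and the distance of its centre from the start site in kb, and each column is a library. Filled circles are called peaks, coloured by percentile rank in their own list (0 is the best score), and crosses are regions without a call. The Mdm4 region 8.80 kb upstream was called in all 6 libraries, and all 5 Mdm2 regions were called in senescent libraries only.

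In each group the longest list held the most peaks of members. Control replicates 1, 2 and 3 held 2794, 3349 and 10601 peaks in all, of which 4, 3 and 10 lay nearest to a member. Senescent replicates 1, 2 and 3 held 4220, 9805 and 5053 peaks, of which 4, 12 and 6 lay nearest to a member. The 4, 3 and 10 control peaks made up 0.143% (95% Wilson interval 0.0557% to 0.368%), 0.0896% (0.0305% to 0.263%) and 0.0943% (0.0512% to 0.174%) of their lists. The 4, 12 and 6 senescent peaks made up 0.0948% (0.0369% to 0.243%), 0.122% (0.0700% to 0.214%) and 0.119% (0.0544% to 0.259%) of theirs. All 6 intervals, which reflect counting error alone, overlapped each other. Means of these shares were 0.109% ± 0.0297 for control and 0.112% ± 0.0150 for senescent MAFs (SD, n = 3), and the difference lay well within the spread of either group. By the exact permutation test over the 20 ways to divide the 6 libraries (two-sided), p was 0.8, and 0.8 after adjustment over 6 such tests. At 3 libraries a group this exact permutation test cannot go below p = 0.1.

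By gene, 2, 3 and 5 of the 10 members had a peak in control replicates 1, 2 and 3, and 3, 6 and 5 in senescent replicates 1, 2 and 3. Of all protein-coding genes, 9.33%, 10.8% and 25.4% had a peak in control replicates 1, 2 and 3, and 14.4%, 26.5% and 16.6% in senescent replicates 1, 2 and 3. Control MAFs averaged 3.33 ± 1.53 members and senescent MAFs 4.67 ± 1.53 (SD, n = 3), with overlap between the groups (exact permutation, p = 0.5, adjusted to 0.72). For peaks, the averages were 5.67 ± 3.79 and 7.33 ± 4.16 (SD, n = 3; exact permutation, p = 0.6, adjusted to 0.72), and the direction of this difference rested on senescent replicate 2. Without that library, control libraries had more member peaks, with a difference of -0.667. Sequencing depth is unknown and the lists are not normalized for it, so depth and binding cannot be told apart in the length of a list.

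**Figure D2:**
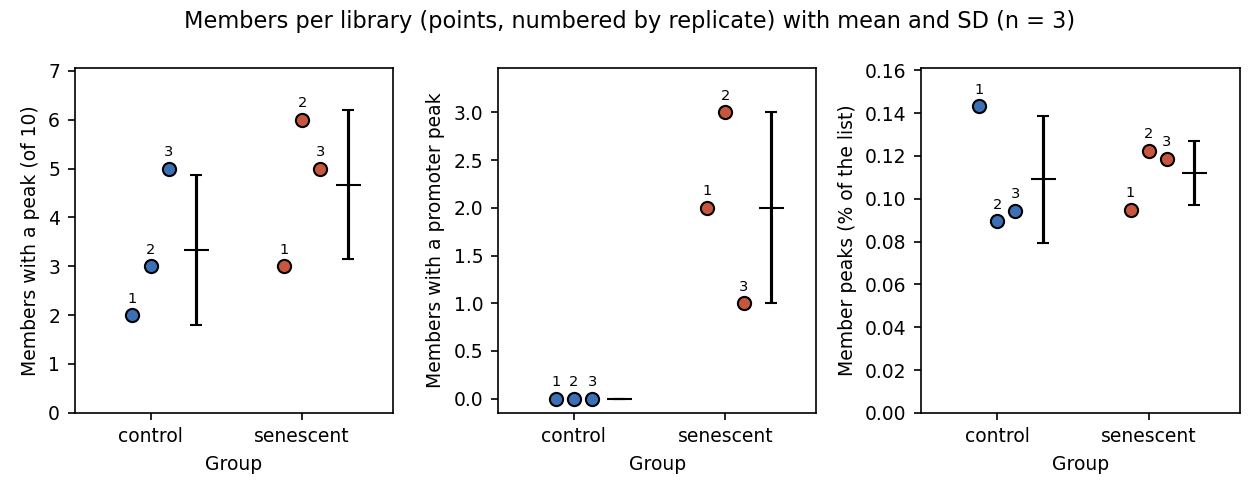
The panels plot, for each library, the number of the 10 members with a peak, the number with a peak within 1000 bp of a start site, and member peaks as a percentage of the list. Points are libraries numbered by replicate, and bars give the mean and SD (n = 3). Only the promoter count separated the groups, with 0 in each control library and 1 to 3 in senescent libraries.

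Peaks at the promoters of members were called in senescent libraries and in none of the control libraries. A promoter peak, with its midpoint within 1000 bp of a start site, was found for 0 members in each of control replicates 1, 2 and 3, and for 2, 3 and 1 members in senescent replicates 1, 2 and 3. The genes were Mdm4 (3 of 3 senescent libraries), Cdkn1a (2 of 3) and Mdm2 (senescent replicate 2). The means were 0 and 2 ± 1 (SD, n = 3), and the groups did not overlap (exact permutation, p = 0.1, which is the lowest attainable, adjusted to 0.6). Of all protein-coding genes, 3.72%, 4.52% and 12.9% had a promoter peak in control replicates 1, 2 and 3, and 7.16%, 16.7% and 8.39% in senescent replicates 1, 2 and 3. A promoter peak in at least 2 of 3 senescent and 0 of 3 control libraries was found for 2.12% of all genes, and the reverse for 0.362%. When the 2794 best-scoring peaks of every list were used, 1 member promoter peak remained, that of Cdkn1a in senescent replicate 1, and the difference in means was 0.333 genes. It was also 0.333 with the peaks over the median score of a list, among which the Mdm2 peak in senescent replicate 2 remained. With a promoter distance of 3000 bp the difference was 2 genes with overlap between groups (exact permutation, p = 0.3).

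Mdm2 was the one member with peaks in a single group. It had no peak in any of the 3 control libraries and at least 1 in all 3 senescent libraries, a pattern shown by 1.48% of all protein-coding genes (0.499% showed the reverse). Its 7 peaks fell into 5 regions. The region shared by the 3 senescent libraries (chr10:117682658-117682875) was centred 28 kb downstream of the start site at 117710758, past the end of Mdm2 (ENSMUSG00000020184, chr10:117688875-117710758, reverse strand) and in an intron of Cpm, the gene of carboxypeptidase M, whose own start site was 53.3 kb away. The noncoding gene Gm25709 had a nearer start site, at 20.4 kb. With start sites of every gene type counted, Mdm2 kept peaks in senescent replicate 2 alone. Peaks of the shared region ranked 1874.5 of 4220, 5913 of 9805 and 1071.5 of 5053 in senescent replicates 1, 2 and 3 (peaks of equal score share their mean rank), which are the percentile ranks 44.4, 60.3 and 21.2 counted from the best score. These are peaks of middling rank. The E-box lay at 117682763 to 117682768, 9 bp from the centre. In this region 61.9% of bases were marked as repeats in the reference sequence.

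The other 4 Mdm2 regions were called in senescent replicate 2 alone, the library with the longest list of its group. The region 34.9 kb downstream (chr10:117675815-117675917, percentile rank 78.6), also in an intron of Cpm, had its E-boxes at 117675791 to 117675796, 117675813 to 117675818 and 117675875 to 117675880, of which only the last lay inside the called peak. The region over the start site (chr10:117710684-117710879, percentile rank 67.4) was centred 24 bp upstream and held 2 GC boxes. The region 637 bp downstream of the start site (chr10:117710050-117710191, percentile rank 32.5), in an intron of Mdm2, held an AP-1 motif 21 bp from its centre. Transcripts of Mdm2 that p53 induces begin at a promoter in the first intron of the gene, and no p53 site was matched in the window of this region.
Mdm2 intron, AP-1 motif in capitals (chr10:117710107-117710166): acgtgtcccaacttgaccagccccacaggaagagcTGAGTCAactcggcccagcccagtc
The region 6.95 kb upstream (chr10:117717652-117717754, percentile rank 75.7) was intergenic and held none of the searched motifs. Single-library calls were common in these data, with 55.7% of all regions and 9 of the 18 member regions called in 1 library.

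Mdm4 had the best-ranked peaks of the members (tied with Cdkn1a in senescent replicate 2) and the only region common to all libraries. The region (chr1:133033779-133034601) lay in intergenic sequence, 8.80 kb upstream of the nearest protein-coding start site of Mdm4 (ENSMUSG00000054387, reverse strand). That start site was at 133025416, but the annotated Mdm4 gene ran on to 133030561, closer to the region. The start site of Pik3c2b lay 11.8 kb away, and that of the noncoding gene Gm29257 at 8.41 kb. The best peak of the region ranked 797 of 2794, 195 of 3349 and 188 of 10601 in control replicates 1, 2 and 3, and 536.5 of 4220, 1903.5 of 9805 and 879 of 5053 in senescent replicates 1, 2 and 3. The percentile ranks were 28.5, 5.82 and 1.77 in control and 12.7, 19.4 and 17.4 in senescent libraries. Control libraries thus held both the highest and the lowest percentile, and senescent libraries lay between them. Averages were 12.0 ± 14.4 for control and 16.5 ± 3.44 for senescent MAFs (SD, n = 3). The difference of 4.47 was smaller than the control SD (exact permutation, p = 0.7, adjusted to 0.887 over the 1123 genes with a peak in all 6 libraries). Without control replicate 3 it was -0.667, and at equal list lengths it was 25.5 (exact permutation, p = 0.2). Among the 1123 genes, groups did not overlap with senescent libraries nearer the top in 13.4% and with control libraries nearer the top in 5.52%, and Mdm4 was in neither set. A peak in all 6 libraries was found for 5.14% of all protein-coding genes, and 6.58% of all regions were called in all 6.

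The ranks of Mdm4 were far from those of clock genes, which give the scale of strong BMAL1 binding in these lists. The best peak of Per1, a repressor of the clock and a classical BMAL1 target, had a mean percentile rank of 0.0331 over the 6 libraries, and that of Nr1d1, which encodes REV-ERBα, 0.157. For Mdm4 the mean was 14.3.

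The second Mdm4 region (chr1:133025221-133025546) covered the start sites at the promoter and was called in 0 of 3 control and 3 of 3 senescent libraries. This pattern was shown by 3.73% of all regions, and the reverse by 1.58%. It was centred 43 bp upstream of a start site, within an intron of a longer Mdm4 transcript. Its peaks lay in the lower part of their lists, with ranks of 4193.5 of 4220, 9016 of 9805 and 3161.5 of 5053 in senescent replicates 1, 2 and 3, or percentile ranks of 99.4, 91.95 and 62.6. The AP-1 motif at 133025544 to 133025550 lay 85 bp from the centre and reached 4 bp past the called region.

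**Figure D3:**
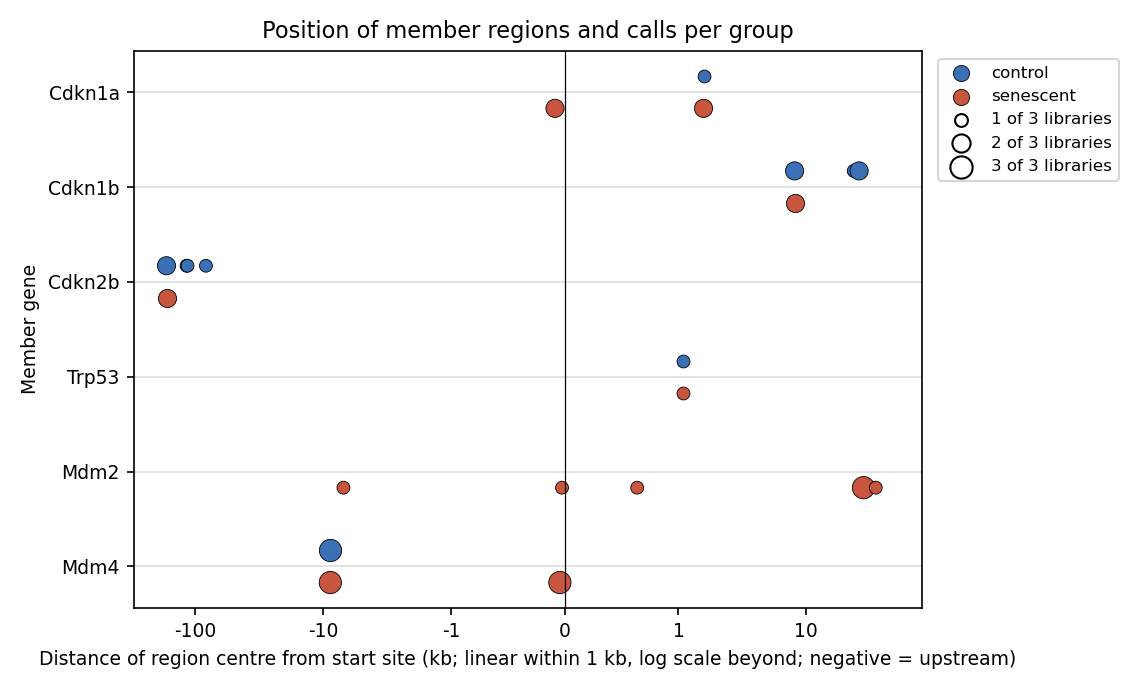
Each circle is a region, placed by the distance of its centre from the start site of its gene (kb, linear within 1 kb and logarithmic beyond, negative values upstream), with control calls above and senescent calls below each line. The area of a circle gives the number of libraries with a call. Senescent calls at the start site are seen for Cdkn1a, Mdm2 and Mdm4, and the regions of Cdkn2b lie between 82.6 and 169 kb upstream.

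Cdkn1a, which encodes p21, had a peak in 1 control and 3 senescent libraries, from 2 regions. A peak in more senescent than control libraries was found for 2 of the 10 members, Cdkn1a and Mdm2, and for 16.7% of all genes. The reverse was found for 1 member, Cdkn1b, and for 9.35% of all genes. The promoter region (chr17:29093497-29093969, centre 86 bp upstream of the start site at the end of the sequence printed for it) was called in senescent replicates 1 and 2, at ranks of 2196.5 of 4220 and 5814.5 of 9805, or percentile ranks of 52.0 and 59.3. It was not called in senescent replicate 3 or in any control library. At least 2 of 3 senescent and 0 of 3 control calls were found in 9.44% of all regions and in 3 of the 18 member regions, those at Mdm4, Mdm2 and Cdkn1a. It held 2 GC boxes and no E-box or AP-1 motif.

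The second Cdkn1a region (chr17:29095172-29095645) was centred 1.57 kb downstream of the start site in an intron. It was called in control replicate 3 at rank 8878 of 10601, a percentile rank of 83.7, and in senescent replicates 2 and 3 at ranks of 1903.5 of 9805 and 1678 of 5053, or percentile ranks of 19.4 and 33.2. The control call was thus near the end of its list, and both senescent calls were in its upper part. At equal list lengths the control call was lost and both senescent calls remained. A pair of AP-1 motifs flanked the centre, 124 bp to one side and 220 bp to the other, outside the window in which motifs were counted.
Cdkn1a intron, left AP-1 motif (chr17:29095213-29095249): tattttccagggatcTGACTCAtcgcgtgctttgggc
Cdkn1a intron, right AP-1 motif (chr17:29095557-29095593): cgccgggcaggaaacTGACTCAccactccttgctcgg
Cdkn1a has an additional, more distal start site at 29090979. In the RefSeq promoter of that start site (GRCm38.p6) a p53 site, a pair of p53 half-sites 0 to 13 bases apart, began 73 bases before the start, and no library had a member region there. Of all 32851 RefSeq promoters of the same length, 0.0731% held such a site.
Cdkn1a distal promoter, p53 site in capitals (chr17:29090894-29090949): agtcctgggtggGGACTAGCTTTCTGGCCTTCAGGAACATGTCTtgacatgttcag

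Cdkn1b, which encodes p27, had a peak in 3 of 3 control and 2 of 3 senescent libraries. The region 8.09 kb downstream of the start site (chr6:134928362-134928807) was called in 2 libraries of each group. It ranked 2013 of 2794 and 1258 of 10601 in control replicates 1 and 3, and 4236.5 of 9805 and 2250.5 of 5053 in senescent replicates 2 and 3, or percentile ranks of 72.0 and 11.9 against 43.2 and 44.5. The groups overlapped. The centre was intergenic and lay nearer to the start of Lockd, a long noncoding RNA gene next to Cdkn1b, than to that of Cdkn1b. The region 25.8 kb downstream (chr6:134946168-134946436), in an intron of Lockd, was the only control-only member region. It was called in control replicates 1 and 3 at percentile ranks of 49.4 and 87.7 and in no senescent library. Of all regions, 5.86% had at least 2 of 3 control and 0 of 3 senescent calls. It no longer met this definition without control replicate 1 or without control replicate 3. A further Cdkn1b region, 23.5 kb downstream, was called in control replicate 2 alone at a percentile rank of 39.8. None of the 3 regions held an E-box or an AP-1 motif within 100 bp of its centre.

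Of the 3 INK4 genes among the members only Cdkn2b, the gene of p15INK4b, was nearest to peaks, and all of its peaks were distant. Cdkn2a and Cdkn2b lie next to each other on chromosome 4, and Cdkn2b faces the wide interval beyond them, so that 197 kb of sequence was nearer to its start site than to any other protein-coding start site, against a median of 47.4 kb over all genes. Its 8 peaks formed 5 regions between 82.6 and 169 kb upstream. The region 168 kb upstream (chr4:89478767-89479264) was called in control replicates 2 and 3 and senescent replicates 2 and 3. The percentile ranks were 89.3 and 45.5 in control and 60.3 and 90.0 in senescent libraries, and the groups overlapped. It held an AP-1 motif 77 bp from its centre and another 179 bp to the other side.
Cdkn2b, 168 kb upstream, left AP-1 motif (chr4:89478822-89478858): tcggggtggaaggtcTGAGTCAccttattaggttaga
Cdkn2b, 168 kb upstream, right AP-1 motif (chr4:89479078-89479114): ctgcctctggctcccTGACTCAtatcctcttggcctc
The other 4 Cdkn2b regions were called in control replicate 3 alone, the library with the longest list of all. Those 115 and 117 kb upstream were of rather high rank (percentile ranks of 12.6 and 18) and lay in introns of the noncoding gene Gm12610.

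Trp53, the gene of p53, had 1 region (chr11:69581390-69581583), centred 1.08 kb downstream of a start site in an intron. It was called in control replicate 3 at rank 1599 of 10601 and in senescent replicate 2 at rank 6072 of 9805, or percentile ranks of 15.1 and 61.9. These were the longest lists of the 2 groups. The Trp53 start site lies head to head with that of Wrap53, and a peak 165 bp upstream of Wrap53 and 870 bp from the Trp53 start site, in senescent replicate 2 alone (percentile rank 87.2), was by the nearest start site a peak of Wrap53. The RefSeq promoter of Trp53 held an E-box just after the start site, and no library had a peak of Trp53 within 1000 bp of it. The E-box was found in 2 of 12 RefSeq promoters of 8 matched members, those of Trp53 and Cdkn2c, and in 7.15% of all RefSeq promoters.
Trp53 start site, E-box in capitals (chr11:69580357-69580386): actttcccctccCACGTGctcaccctggct

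No peak was nearest to Cdkn1c, Cdkn2a, Cdkn2c or Rb1 in any library. The closest peak to Cdkn2a, the gene of p16INK4a and p19ARF, was 98.97 kb from the nearer of its start sites and was one of the Cdkn2b peaks. The closest peak to Cdkn1c was 88.2 kb away, at the promoter of Nap1l4. The closest to Rb1 was 91.0 kb away, within the Rb1 gene but nearest to Lpar6, which lies in an intron of Rb1. Cdkn2c differed in that a region called in all 6 libraries lay 9.20 kb from its start site. This region was centred 198 bp from the start site of Faf1 and belonged to that gene. A peak not called does not show that BMAL1 was absent, since depth limits what can be called.

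Motifs were searched as exact letters on both strands within 100 bp of the centre of the best-ranked peak of each region. The E-box was found in 2 of the 18 member regions, both at Mdm2 and both senescent calls only, and in 16.7% of all regions. The share was 2.67% in equally long windows placed 2000 bp away from all regions, on either side. AP-1 was found in 4 member regions, 1 at Mdm4, 1 at Mdm2 and 2 at Cdkn2b, and in 16.5% of all regions, with 3.59% of the flanking windows. Of the 36 flanking windows of member regions, 3 held AP-1 and 2 an E-box. GC boxes were found in 3 member regions, at Cdkn1a, Mdm2 and Trp53, and in 23.2% of all regions. The variant E-box, the E2F motif and the p53 site were found in 0 member regions, against 6.01%, 1.29% and 0.0238% of all regions. With 18 regions, 1 region is a large step in such a share, and the E-box count changed from 2 to 1 without senescent replicate 2.

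Other genes of the same pathways were read in the same way, from lists of 35 p53 target genes and 22 genes of the RB and E2F axis. Of the p53 target genes, 10, 9 and 20 had a peak in control replicates 1, 2 and 3, and 12, 20 and 13 in senescent replicates 1, 2 and 3. The means of 13 ± 6.08 and 15 ± 4.36 (SD, n = 3) overlapped (exact permutation, p = 0.6, adjusted to 0.72), and the difference was 0 without control replicate 2 and -0.5 without senescent replicate 2. Of these 35 genes, 4 had a peak in all 6 libraries, where 5.14% of all protein-coding genes did. Among the 4, mean percentile ranks over the 6 libraries were 10.9 for Plk2, a Polo-like kinase, 17.3 for Bax, a mediator of apoptosis, and 23.6 for Ccng1, which encodes cyclin G1. The percentile ranks of Bax were 53.9, 17.6 and 12.6 in control and 10.8, 3.74 and 5.26 in senescent replicates 1, 2 and 3, without overlap (exact permutation, p = 0.1, adjusted to 0.527 over the 1123 genes). Of those 1123 genes, 13.4% likewise had no overlap in this direction and 5.52% in the other. Ddb2, a DNA repair factor, and Tnfrsf10b, a death receptor, had a peak in 2 control libraries and no senescent one, and no p53 target had the reverse. Of all genes, 1.63% had at least 2 of 3 control and 0 of 3 senescent calls, and 3.42% had the reverse, as Mdm2 did among the members.

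Of the RB and E2F axis genes, 7, 6 and 14 had a peak in control replicates 1, 2 and 3, and 9, 13 and 12 in senescent replicates 1, 2 and 3. The means of 9 ± 4.36 and 11.3 ± 2.08 (SD, n = 3) overlapped (exact permutation, p = 0.5, adjusted to 0.72). The difference of 2.33 genes ranged from 0.833 to 4.83 when one library was left out, with the lowest value without control replicate 2 and the highest without control replicate 3. Of the 22 genes, 5 had a peak in all 6 libraries, where 5.14% of all protein-coding genes did. The 5 genes were Ccne2, Cdk4, Ccne1, Ccnd1 and E2f7, with mean percentile ranks of 1.84, 3.09, 4.62, 6.05 and 10.9. They encode cyclins E2, E1 and D1, the kinase CDK4 that p16INK4a inhibits, and an E2F repressor, and each had a better mean rank than the 14.3 of Mdm4. Ccnd2, the gene of cyclin D2, had no peak in control libraries and one in all 3 senescent libraries, at percentile ranks of 12.3, 3.81 and 7.37, and E2f1 was called in 2 senescent and 0 control libraries. Of all protein-coding genes, 3.42% had at least 2 of 3 senescent and 0 of 3 control calls. For 3 of 3 senescent and 0 of 3 control calls, the share was 1.48%. At equal list lengths 7, 6 and 6 of the 22 genes had a peak in control and 9, 9 and 9 in senescent libraries, and the groups no longer overlapped (exact permutation, p = 0.1, which is the lowest attainable). All protein-coding genes separated in the same direction at that setting, with 9.33%, 9.44% and 9.86% having a peak in control and 10.3%, 10.4% and 10.3% in senescent replicates 1, 2 and 3. The p53 target genes did not separate, with 10, 9 and 7 genes in control and 8, 12 and 9 in senescent libraries (exact permutation, p = 0.7).

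**Figure D4:**
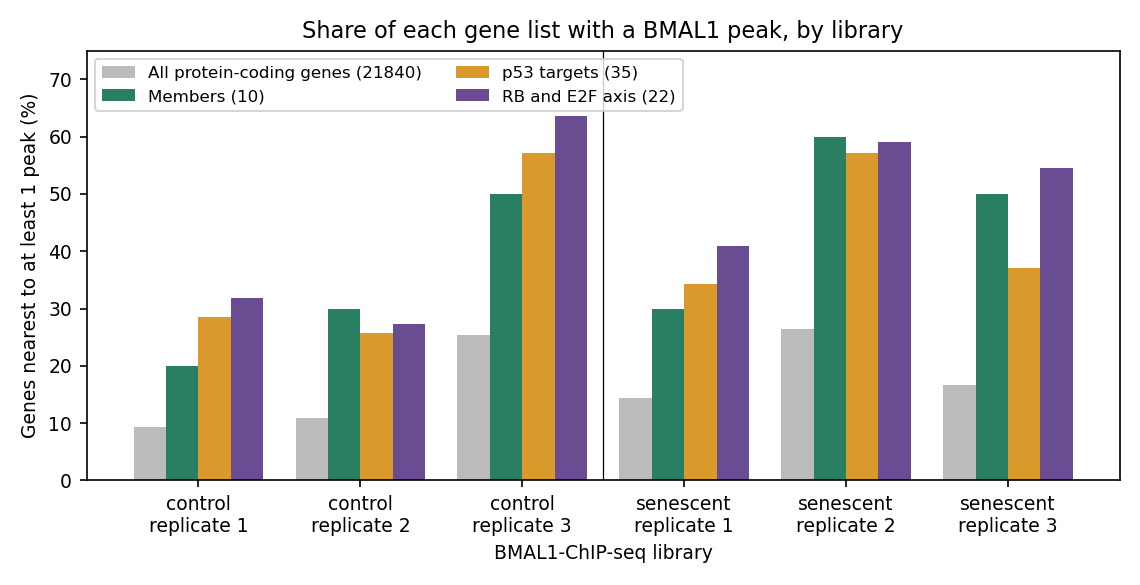
Bars give, for each library, the percentage of all 21840 protein-coding genes, of the 10 members, of 35 p53 target genes and of 22 RB and E2F axis genes that were nearest to at least 1 peak. All 3 lists stood above the share of all genes in each library. All were highest in control replicate 3 or senescent replicate 2, the longest lists. For the members, the higher share in every library depended on counting protein-coding start sites alone. Counting those of every gene type left 0, 0 and 1 members with a peak among the control libraries, in replicate order. Among the senescent libraries 2, 4 and 1 members were left. The shares were not adjusted for the length of sequence nearest to each gene.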

How the data were processed

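BMAL1-ChIP-seq was performed on 3 control and 3 senescent MAF libraries, and the 6 input libraries were not analysed here. The authors aligned paired reads to mm10 with BWA, retained pairs of which 1 end or both mapped uniquely, and discarded duplicates (Picard). MACS2 peaks were called library by library at an FDR of 1% or less. Whether the input served as control is not given in the sources used here. The score that the authors deposited with a peak was taken to be a −log10 q-value, because the lists end at scores of 2.02 to 2.12. It is not normalized between libraries and was only ranked within its own list, with tied scores sharing a mean rank. The percentile rank is the rank divided by the length of the list. Depth is unknown.

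Groups and replicate numbers came from the sample titles. The midpoint of each peak was assigned to the nearest start site of a protein-coding transcript (GENCODE basic, release M21), and peaks overlapping by at least 1 bp were merged into regions. For values per library, an exact permutation test (two-sided) enumerated all 20 arrangements of the 6 libraries, with Benjamini-Hochberg adjustment over 6 tests, and ranks were adjusted over the 1123 genes with a peak in all 6 libraries. Sequences were read from GRCm38.p6. Scripts used Python 3.11.15, pandas 2.3.3 and scipy 1.17.1 and were tested on simulated data.

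The members and lists were chosen with earlier results of these data known. Named were all 10 members and, from each pathway list, up to 5 genes of best mean rank with a peak in all 6 libraries and those with at least 2 of 3 calls in one group and 0 of 3 in the other, of which 1 gene is not reported here. Alternatives tried were the better-scoring peaks of a list (above its median), equal peak numbers, leaving out each library, pairing by replicate number, start sites of every gene type, peaks within 50 kb of the start site, and other promoter distances, overlaps, call rules and motif windows.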

Additional observations from a re-analysis of the deposited data

How the results depend on the processing

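No comparison of the groups reached a p below 0.1 with all 6 libraries, and none could. Member peaks per library, 5.67 in control and 7.33 in senescent libraries, changed direction with only the better-scoring peaks, those over a list's median (-0.333), and at equal peak numbers (-0.667). Leaving out one library gave -0.667 to 3.83. Member peaks as a percentage of the list, higher by 0.00295 in senescent libraries, were lower by these settings (-0.0374 and -0.0239), and ranged from -0.00678 to 0.0200 with a library left out. It was higher by 0.0186 with peaks within 50 kb, and by 0.0396 with start sites of every gene type, where 0, 0 and 1 member peaks in control and 2, 6 and 1 in senescent libraries were left and the shares did not overlap (exact permutation, p = 0.1). The difference was below 0 without control replicate 2, control replicate 3 (-0.00440), senescent replicate 2 (-0.00226) or senescent replicate 3 (-0.000438). The p53 target genes ranged from -0.5 to 5.5 genes, the Mdm4 rank from -0.667 (without control replicate 3) to 12.7, and members with a promoter peak from 1.5 to 2.5.

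Members with 2 or 3 calls in one group and 0 in the other numbered 1, and 2 under the median score, equal peak numbers and start sites of every gene type, with 1 to 2 when a library was left out (2 without control replicate 3). Mdm2 was not among the 2 with start sites of every gene type. Its region shared by the 3 senescent libraries then lay nearest to Gm25709, and its other regions were called in senescent replicate 2 alone. The control-only region count was 0 in place of 1 under the median score, equal peak numbers, start sites of every gene type and calls in 3 of 3 libraries, and 0 to 1 with a library left out. The senescent-only region count was 2 in place of 3 under the same settings, and 2 to 4 with a library left out. Under the median score and at equal peak numbers these 2 were the Mdm2 region 28 kb downstream and the intronic Cdkn1a region. The promoter regions of Mdm4 and Cdkn1a were then no longer senescent-only. With start sites of every gene type it was these promoter regions that remained, and the Mdm2 region 28 kb downstream was lost. With calls required in 3 of 3 libraries, that Mdm2 region and the Mdm4 promoter region remained. No region was thus senescent-only at all of these settings. Counting start sites of every gene type left 0 member regions with an E-box and 2 with AP-1, because regions nearer to noncoding genes left the list. The Mdm4 rank has no value at that setting, since Mdm4 then lacked a peak in some libraries. AP-1 was found in 2 regions within 50 bp of the centre. The E-box count was 1 to 2 with a library left out. The cause of the other changes was not tested.

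The deviations of same-numbered libraries from their group means, over all regions, had correlations of -0.122, 0.142 and 0.113. Libraries of different number ranged from -0.227 to 0.170. With 3 libraries a group the deviations depend on each other, so these values cannot decide whether libraries were paired. The replicate block left the differences as they were, with 2 promoter genes (exact test over sign flips, p = 0.25, the smallest possible for 3 pairs) and 4.47 for Mdm4 (p = 1), and no comparison passed 0.05 with or without it. Of 130 alternative values, 104 kept their direction or, for counts, stayed near the count reported.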
